A study of Mus musculus with 20 samples.

Results

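The H3K27me3 peaks of wild-type (WT) mouse embryonic fibroblasts held in arrest were laid over those of the same kind of cells in proliferation. The members were the autosomal peaks (chromosomes 1 to 19) of the arrested WT list and of the proliferating WT list, 763049 of the 4480164 peaks that all lists of the series hold on all chromosomes. Of these, 632166 were arrested peaks and 130883 were proliferating peaks, and 51714 of the proliferating peaks were over 1 kb long. Each proliferating peak over 1 kb was described by the share of its bases lying in arrested peaks and by the number of arrested peaks that cut into it, here called pieces. Each arrested peak was described by whether it shared at least 1 bp with a proliferating peak.

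The series applied chromatin immunoprecipitation and sequencing to pRb, Ezh2 and H3K27me3 in WT fibroblasts and in mutant fibroblasts, whose genotype is given only as SS. All fibroblasts came from C57BL/6 embryos at E13.5, were grown in medium with 10% fetal bovine serum to passage 4, and were fixed with formaldehyde together with the longer linker ethylene glycol bissuccinimidylsuccinate. The arrested cells were quiescent through serum deprivation and the proliferating cells were asynchronous, and both WT libraries used the same Millipore antibody. The arrest is described as 0.1% serum for 72 h, a text that stands on the proliferating samples too. The labels do not say whether embryos were pooled. Each group was 1 library, so differences below were not checked against replicates and carry no p-value. The 2 SS H3K27me3 lists, one per growth state, and the Ezh2 list of serum-deprived WT cells were laid over the same peaks for context.

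H3K27me3 is trimethylation of lysine 27 of histone H3, placed by Polycomb repressive complex 2, whose catalytic subunit is usually Ezh2. The mark is known for broad domains over silent developmental genes, among them the Hox clusters that set position along the body axis, and in fibroblasts also for the Ink4-Arf locus, which encodes inhibitors of cell-cycle kinases. Quiescence is a reversible exit from the cell cycle.

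The WT lists differed in form before any overlap was taken. The arrested list held many short peaks, covering 184.8 Mb with a median length of 138 bp, whereas the proliferating list covered 235.1 Mb with a median length of 735 bp. Peaks over 1 kb made up 4.29% of arrested and 39.5% of proliferating peaks, and held 22.6% and 84.2% of the covered length. Peaks over 10 kb numbered 6 in the arrested and 3356 in the proliferating list. In the arrested list 45.6% of peaks had the shortest length, 133 bp, against 6.84% of proliferating peaks at their shortest length, 155 bp. The SS lists also differed by growth state, with medians of 439 bp in arrested and 705 bp in proliferating cells and 628 and 3987 peaks over 10 kb.

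The authors' values set the arrested WT list apart as well. Its median fold enrichment was 5.86, against 2.60 for proliferating WT and 3.24 for arrested SS peaks, and its median -log10 q-value was 8.56 against 1.86 and 1.77. In each of the 5 lists used the smallest gap between neighbouring peaks was 1 bp more than 4 times the shortest peak, which gave 533 bp in arrested WT, 581 bp in arrested SS and 621 bp in both proliferating lists. Breaks narrower than these were therefore not resolved in any list. Sequencing depth and calling settings are unknown, and a called base is not an amount of mark. List form, fold and q-value moved together with growth state in WT, and their part in the results below was not tested.

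**Figure D1:**
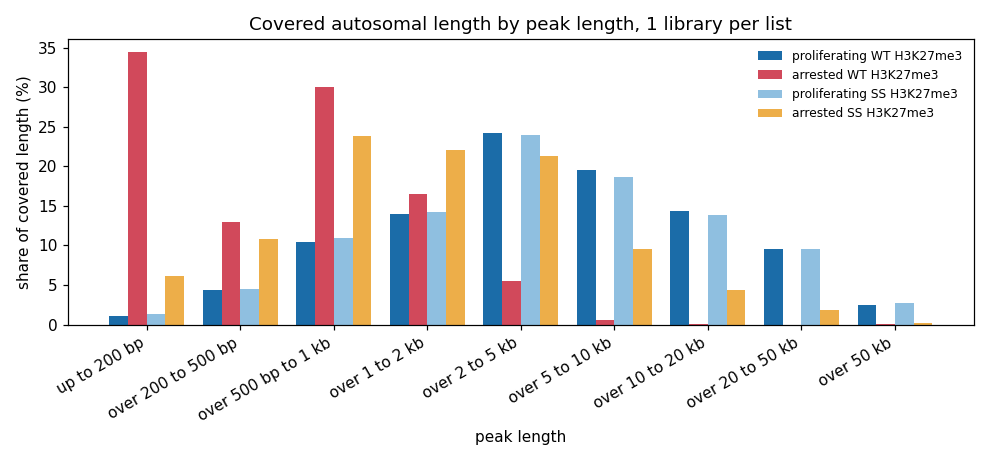
Share of the covered autosomal length (vertical axis, %) held by peaks of each length class (horizontal axis) in the 4 H3K27me3 lists, 1 library each. The arrested WT bars stand in the classes up to 2 kb, while both proliferating lists reach past 20 kb.

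Arrested peaks covered a minority of the bases of nearly all proliferating peaks over 1 kb. Of the 197.9 Mb in these 51714 peaks, 26.3% lay in arrested peaks, with 23.7% on chromosome 18 and 28.3% on chromosome 2 as the lowest and highest autosomes. The median peak was covered over 15.3% of its length, and the middle 50% of peaks ranged from 6.31% to 31.3%. Coverage was under 50% in 47787 peaks, or 92.4% (Wilson 95% interval 92.2% to 92.6%), next to 90.6% of all proliferating peaks. Coverage of 90% or more was found in 303 peaks, or 0.586% (0.524% to 0.655%), next to 3.05% of all. Such intervals cover counting error only, and neighbouring peaks are not independent. The proliferating SS list covered 83.8% of the same bases and the arrested SS list 47.2%.

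Most proliferating peaks over 1 kb kept at least 1 arrested piece. No piece was found in 9014 of them, or 17.4% (17.1% to 17.8%), so that 82.6% were touched, next to 52.3% of all proliferating peaks. Pieces numbered 2 or more in 22516 peaks, or 43.5% (43.1% to 44.0%), next to 17.4% of all. The peaks were chosen by length, and a longer peak has more room for pieces. A single piece held more than 50% of the peak in 2648 cases, or 5.12%, whereas 1 proliferating SS peak did so in 71.1% of cases and 1 arrested SS peak in 19.0%.

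Coverage in the arrested list rose with the length of the proliferating peak. It was 16.8% for the 23400 peaks over 1 to 2 kb, 20.9% for the 18254 over 2 to 5 kb and 26.7% for the 6704 over 5 to 10 kb. It reached 32.1% for the 2493 peaks over 10 to 20 kb, 39.4% for the 783 over 20 to 50 kb and 46.9% for the 80 over 50 kb. In the latter class the middle 50% of peaks ranged from 40.3% to 51.5%. The longest peaks were thus both the best covered and, as the counts below show, the most divided.

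The number of pieces followed length almost in proportion. The median was 1 piece for peaks over 1 to 2 kb, 2 for those over 2 to 5 kb, 4 for those over 5 to 10 kb, 7 for those over 10 to 20 kb, 14 for those over 20 to 50 kb and 31 for those over 50 kb. Per kb of peak the density of pieces moved little, from 0.560 in the shortest of these classes to 0.466 in the longest. The mean piece, in contrast, lengthened from 300.1 bp to 1005 bp across the same classes. Higher coverage of long peaks thus went with longer pieces and not with denser ones. Pieces were cut at the ends of the proliferating peak, and every arrested peak that touched it was counted. Both rules shorten pieces and raise their density most in short peaks, and their part in these trends was not tested. In the arrested SS list the density fell from 0.469 to 0.185 pieces per kb across the classes, and in the proliferating SS list from 0.684 to 0.0253.

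**Figure D2:**
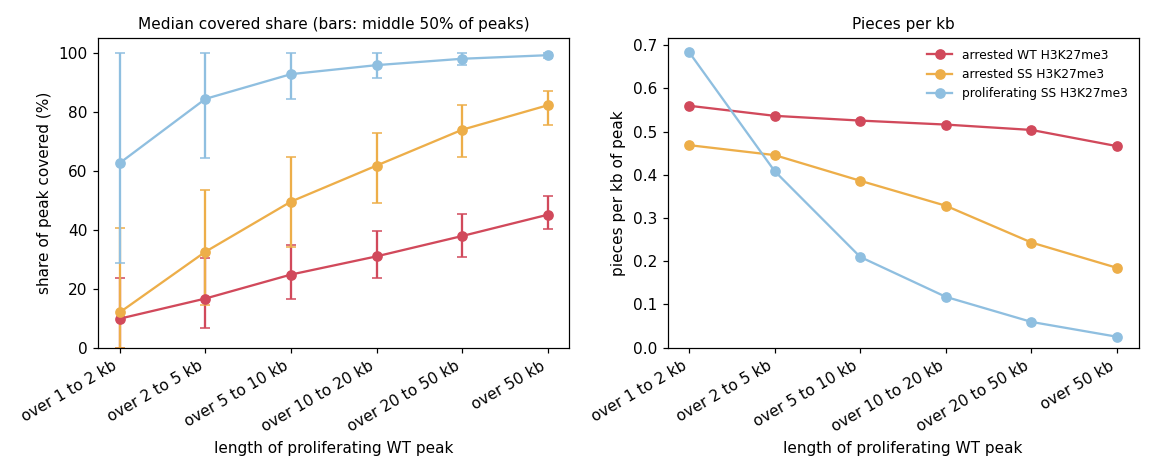
Left, median share of a proliferating WT peak covered by each overlaid list (vertical axis, %; bars span the middle 50% of peaks) by length of that peak. Right, pieces per kb of peak; the arrested WT line stays between 0.466 and 0.560 while both SS lines fall with length.

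The proliferating peaks over 10 kb, here called broad domains, were nearly all divided. All but 1 of the 3356 were in 2 or more arrested pieces, with a median of 8 and a middle 50% of 6 to 11. Their pieces numbered 0.507 per kb. Arrested peaks outside all proliferating peaks were sparser, at 211 to 240 per Mb (1000 kb) over the autosomes. Even at the outside density a stretch over 10 kb can hold 2 or more arrested peaks. Division into 2 or more pieces alone thus does not set these domains apart, although their density of pieces was higher than outside. Pieces numbered 10 or more in 1086, or 32.4% (30.8% to 34.0%), next to 0.83% of all proliferating peaks. None lacked a piece, a count of 0 that allows a share of up to 0.0894% when 3 counts are taken as its limit and 0.114% by the Wilson interval. Only 4 held an arrested piece longer than 50% of the peak, or 0.119% (0.0464% to 0.306%). A piece of that size must be over 5 kb long. The whole arrested list held 160 peaks over 5 kb, so its short form capped this count before any overlap. Laid over the same 3356 peaks, the proliferating SS list had a median of 1 piece and 92.8% with 1 piece over 50%, and the arrested SS list a median of 5 and 20.2%.

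The gaps that divided the peaks were short and similar in every class. Inside proliferating peaks over 1 kb the arrested list left 61938 gaps between pieces, with a median of 970 bp and a middle 50% of 713 to 1429 bp. Class medians lay between 767 and 1029 bp, 52.4% of all gaps were at most 1 kb and 2.63% were over 3 kb. Such gaps cannot exceed the peak or fall under 533 bp, and uncovered ends were not counted. The counting rule thus sets part of their size. Over the whole arrested list the median gap was 2250 bp, and 19.3% of gaps were at most 1 kb. The 104638 pieces had a median of 222 bp, and 48.6% were at most 200 bp. The pieces over 1 kb still held 45.9% of the piece length, a share that rose from 15.6% in proliferating peaks over 1 to 2 kb to 73.8% in those over 50 kb. When arrested peaks were joined across gaps of up to 1 kb, coverage inside rose to 40.3%, and outside all proliferating peaks from 5.85% to 8.67%. Joining across up to 3 kb gave 78.3% and 26.9%, and 89.4% of proliferating peaks over 10 kb then held a piece longer than 50% of them. The latter setting also built 16558 arrested peaks over 10 kb, more than the 3356 of the proliferating list.

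Within each of the 5 length classes from 1 to 50 kb, proliferating peaks of higher fold enrichment were better covered; the 80 peaks over 50 kb were not split. Ranked into 5 equal groups by the authors' fold, peaks over 1 kb were covered over 15.6%, 17.5%, 19.8%, 22.9% and 34.0% of their bases from the lowest to the highest group. The share with no piece fell from 32.1% to 4.09%. Among peaks over 20 to 50 kb alone, coverage rose from 29.6% at a median fold of 3.31 to 51.8% at a median fold of 6.48. The density of pieces lay between 0.521 and 0.541 per kb over the 5 groups of all peaks over 1 kb. These groups also differed in length, with medians of 1391 bp in the lowest and 6079 bp in the highest. Within classes the density went in both directions. From the lowest to the highest group it went from 0.533 to 0.599 for peaks over 1 to 2 kb, and from 0.524 to 0.449 for those over 20 to 50 kb.

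The 9014 long proliferating peaks with no arrested WT piece were mostly near the length threshold. They comprised 7594 peaks over 1 to 2 kb, 1400 over 2 to 5 kb and 20 over 5 to 10 kb. Within the class over 1 to 2 kb, the arrested SS list touched 54.4% (53.3% to 55.5%) of peaks with no arrested WT piece and 62.8% (62.1% to 63.6%) of the others. The proliferating SS list touched 84.7% (83.9% to 85.5%) and 89.9% (89.4% to 90.3%). The peaks with no piece were also shorter, with a median of 1283 against 1413 bp, and of slightly lower fold, 2.58 against 2.62. Among peaks over 5 to 10 kb the arrested SS list touched all 20 with no piece and 99.6% of the others. At the threshold itself, peaks over 900 bp to 1 kb numbered 4192 with 15.2% coverage, and those over 1 to 1.1 kb numbered 3718 with 15.6%.

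Arrested coverage was higher in the middle of broad domains than at their ends. In proliferating peaks over 10 kb cut into 20 equal parts, 25.0% of the first part and 25.5% of the last lay in arrested peaks, and the highest value, 40.8%, stood in part 9. Just past the ends, among bases in no proliferating peak, coverage was 15.2% in the first kb and 11.6% in the second, and it was still 8.42% at 20 kb. The arrested SS list rose from 44.4% in the first part to 74.9% in part 12 and stood at 20.4% in the first kb outside. The proliferating SS list held 85.4% of the first part and 50.7% of the first kb outside. All 3 lists were lowest in the 2 end parts, and inside the domains the arrested WT values lay below both SS lists at every position.

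**Figure D3:**
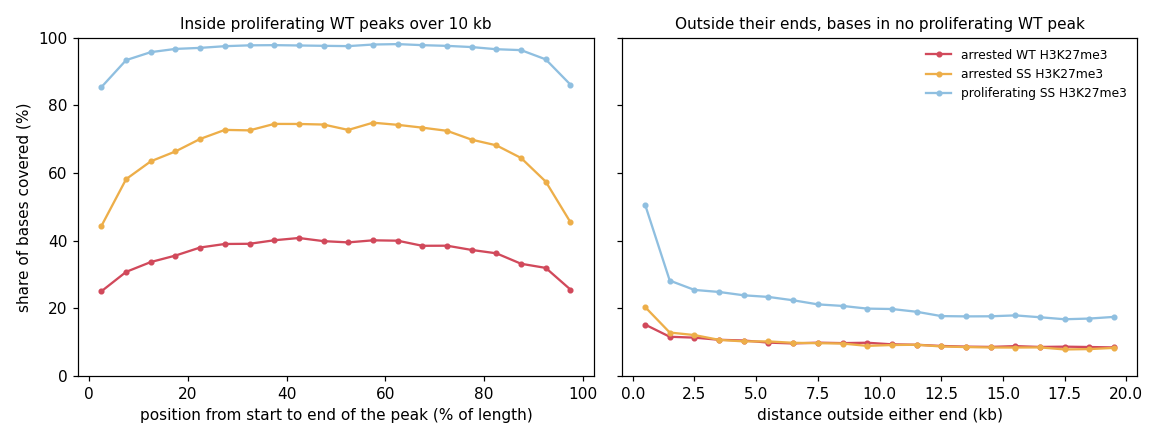
Share of bases covered (vertical axis, %) by each overlaid list in 20 equal parts of the proliferating WT peaks over 10 kb (left) and in 1 kb steps up to 20 kb beyond their ends (right). Arrested WT runs from about 25% at the ends to 40.8% inside, and from 15.2% to 8.42% outside.

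The Hox clusters were broad domains divided into many pieces, and 3 of the 4 were among the 5 proliferating peaks with the most pieces. Their windows were placed from general knowledge of mm9, since no mm9 annotation was used, and were chosen with earlier results known. The longest proliferating peak of the genome lay at HoxC, chr15:102723644-102908613 (mm9). In the arrested list 54.8% of its 184970 bp lay in 85 pieces, the longest of 11478 bp. The next, at HoxB, chr11:96084060-96248997, was covered over 42.4% in 83 pieces with none above 3379 bp. At HoxD, chr2:74476009-74616193 was covered over 42.6% in 71 pieces, and at HoxA, chr6:52111187-52232767 over 48.7% in 56 pieces. All 4 clusters thus kept between 42.4% and 54.8% of the domain. For all peaks over 50 kb coverage was 46.9%, with a middle 50% of 40.3% to 51.5%, so these shares were near those of their length class. The piece counts likewise go with the length of these domains.

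The SS lists held the same Hox domains with fewer breaks. In proliferating SS cells the HoxC and HoxA domains were each covered over 100% by 1 peak, the HoxB domain over 98.5% by 2 and the HoxD domain over 98.2% by 3. In arrested SS cells the HoxC domain was covered over 67.5% in 44 pieces, one of them 76618 bp long. The arrested SS list covered 70.0% of the HoxA domain in 25 pieces, 51.6% of the HoxB domain in 53 and 66.3% of the HoxD domain in 33. All 4 shares were below the middle 50% of peaks over 50 kb in that list, 75.4% to 87.1%. The arrested WT list therefore had both the lowest coverage and the most pieces in each of the 4.

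**Figure D4:**
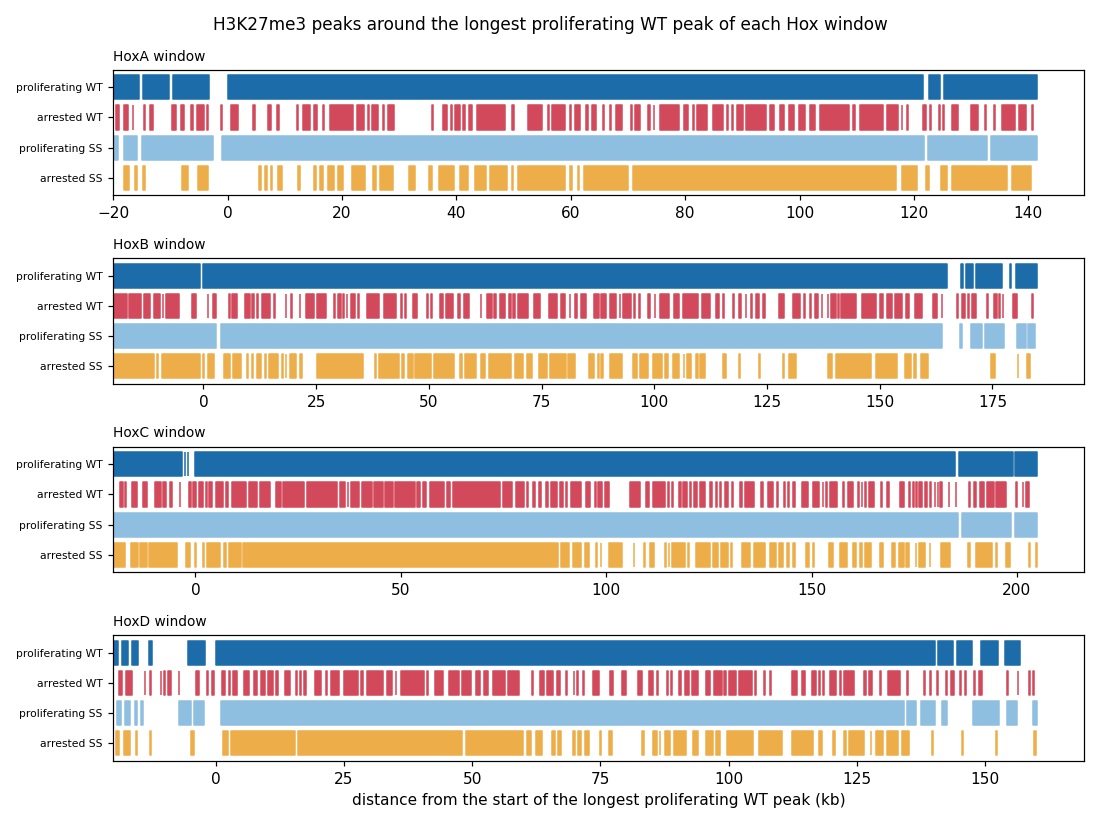
Peaks of the 4 H3K27me3 lists (rows) in the HoxA, HoxB, HoxC and HoxD windows, by distance from the start of the longest proliferating WT peak (kb). The single blue block of each proliferating WT domain stands above 56 to 85 separate arrested WT pieces.

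The other long domains completed the 5 longest proliferating peaks, which were also the 5 with the most pieces. The peak chr7:86631397-86793977 was covered over 55.4% in 77 pieces, and chr19:44782456-44920408 over 48.9% in 72. In the arrested SS list 89.5% and 85.1% of them were covered, in 17 and 22 pieces, so that the contrast between the arrested lists was wider here than at any of the Hox domains. No gene was assigned to either.

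At the Ink4-Arf locus, which holds Cdkn2a and Cdkn2b, the marked region was smaller. Its longest proliferating peak, chr4:88904625-88937444, spanned 32.8 kb with a fold of 4.72. The arrested list covered 22.6% of it in 17 pieces, the longest of 1810 bp. Among the 783 peaks over 20 to 50 kb the middle 50% ranged from 30.9% to 45.4%. The Ink4-Arf share was below that range, but its rank among the single peaks of the class was not taken. In arrested SS cells 26.6% was covered in 9 pieces, also below the middle 50% of the class in that list, 64.6% to 82.3%. In proliferating SS cells 97.9% was covered in 2. The shares in the arrested lists differed by less than at any of the 4 Hox domains. Over the whole window coverage was 14.9% in proliferating and 5.35% in arrested WT cells.

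A few broad domains stayed whole in the arrested list. The best covered, chr8:126061224-126151267, kept 99.1% of its 90044 bp in 2 pieces, and chr9:121128312-121149337 kept 91.2% in 1. Their folds in the proliferating list were 10.4 and 10.6. Class medians there were 5.24 for peaks over 50 kb and 4.33 for those over 20 to 50 kb. The arrested SS list covered 97.6% and 94.3% of these 2 domains. Ezh2 peaks covered 0.0555% of the chr8 domain and 2.07% of the chr9 domain, against 3.67% of bases in proliferating peaks over 1 kb. Among the others of the 5 best covered, chr17:35521825-35613863 was covered over 81.8%, yet in 21 pieces. The chr8 and chr9 domains held the longest arrested peaks, of 85978 and 19166 bp. The arrested folds of these peaks were 3.87 and 5.03, both below the arrested list median of 5.86. Next in length were the 11478 bp peak inside HoxC and peaks at chr3:87604670-87615427 and chr10:84215768-84225994, with arrested folds of 7.83, 6.47 and 7.77. These 5 longest arrested peaks all lay wholly inside proliferating peaks.

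The least covered broad domains were near the lower end of the length range, and their arrested coverage was below the 5.85% of bases covered outside all proliferating peaks. The lowest, chr11:94234008-94245920, was covered over 3.52% in 3 pieces of at most 150 bp. The 5 lowest lay between 3.52% and 4.51%, with lengths of 11.1 to 11.9 kb and proliferating folds of 2.70 to 3.54, against a median of 3.52 for the class over 10 to 20 kb. Of these 5, arrested SS peaks covered between 23.3% and 65.0% and proliferating SS peaks between 60.7% and 100%.

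Most arrested peaks lay outside the proliferating peaks, and nearly all of those were short. Outside peaks numbered 502499, or 79.5% (79.4% to 79.6%) of the 632166 arrested peaks, with 71.0% on chromosome 11 and 87.0% on chromosome 3 as the extremes. Their median length was 133 bp, against 285 bp for the 104261 peaks that touched a proliferating peak over 1 kb. A further 25406 peaks touched a shorter proliferating peak alone. Outside peaks held 116.4 Mb of the 184.8 Mb covered. The bases outside all proliferating peaks themselves made up 2180.2 Mb of the 2415.2 Mb autosomal span. Arrested peaks covered 5.85% of these outside bases, against 7.65% of all autosomal bases. The large outside share thus goes with the room outside and does not mean that arrested peaks were denser there. The density of outside peaks varied little over the autosomes, from 211 per Mb on chromosome 7 to 240.0 per Mb on chromosome 9.

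The longer an arrested peak, the less often it lay outside. The outside share was 87.5% at the shortest length, 85.4% for longer peaks up to 200 bp, 69.9% over 200 to 500 bp and 63.2% over 500 bp to 1 kb. It dropped to 34.0% over 1 to 2 kb and to 4.52% (3.90% to 5.22%), or 173 peaks, over 2 to 5 kb. None of the 160 arrested peaks over 5 kb lay outside, which allows a share of up to 1.88% by the limit of 3 counts and 2.34% by the Wilson interval, and all 160 touched a proliferating peak over 1 kb. A longer peak also has more bases with which to touch a proliferating peak, and this count does not separate that from place. Over the authors' score the outside share did not fall throughout. Over 10 equal groups of the arrested list by -log10 q-value it fell from 86.5% in the lowest group to 74.9% in group 7. It then rose to 80.6% in the highest group, whose median fold was 13.3.

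Measured per base, the arrested list was denser inside proliferating peaks. It covered 26.3% of the bases in proliferating peaks over 1 kb, 13.7% in shorter ones, 9.36% of the bases outside but within 5 kb of a proliferating peak and 4.68% farther away. The ratio of coverage inside peaks over 1 kb to coverage outside all proliferating peaks was 4.50, with 3.94 on chromosome 18 and 4.94 on chromosome 4 as the lowest and highest. Outside coverage was similar on every autosome, from 5.39% to 6.29%. For the arrested SS list the corresponding shares were 47.2% inside and 2.74% outside.

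Arrested peaks outside were seldom shared with the arrested SS list. Of all arrested WT peaks 15.9% touched an arrested SS peak, but this was 61.3% (61.0% to 61.6%) of those in proliferating peaks over 1 kb and 5.87% (5.81% to 5.94%) of those outside. The difference stood at equal length: 46.4% against 4.39% at the shortest length, 70.7% against 11.2% over 500 bp to 1 kb and 97.0% against 28.3% over 2 to 5 kb. Arrested SS peaks are themselves denser inside. Set against the share of all bases that arrested SS peaks cover in the same compartment, arrested WT bases lay in them 1.60 times as often over 5 kb away from proliferating peaks and 1.47 times as often outside within 5 kb. Inside, the ratio lay between 1.08 and 1.19 over the 6 length classes of proliferating peaks over 1 kb. This ratio has a ceiling that falls as the arrested SS share of the compartment rises. That share was 1.20% over 5 kb away and 7.37% outside within 5 kb, but 24.1% to 79.9% over the 6 classes. The ceiling was thus lowest inside, and the ratios do not rank sharing between compartments. Fold enrichment did not set the places apart at the shortest length, with medians of 4.52 inside and 4.54 outside.

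**Figure D5:**
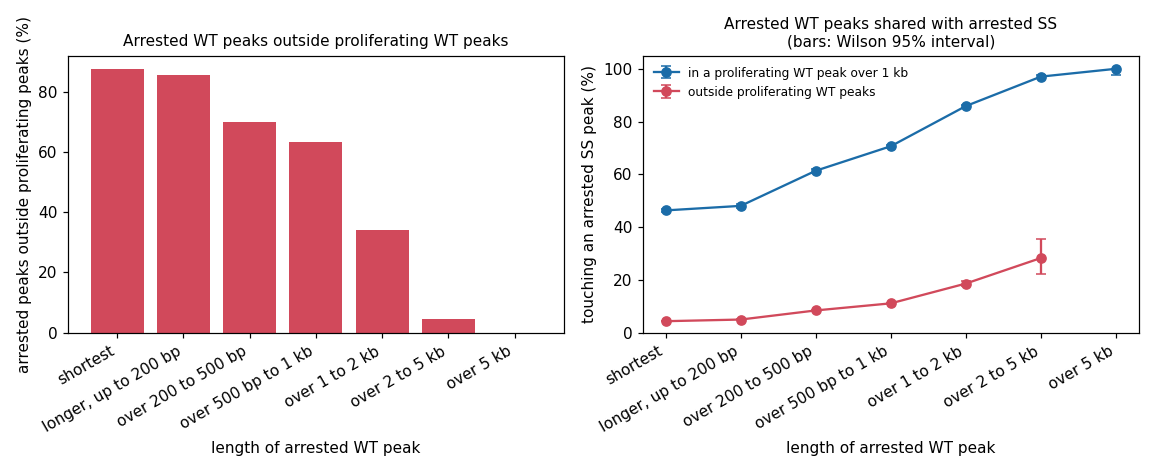
Left, share of arrested WT peaks (vertical axis, %) outside proliferating WT peaks by length class. Right, share touching an arrested SS peak (%; bars are Wilson 95% intervals) for peaks in proliferating WT peaks over 1 kb and for peaks outside; in each class up to 5 kb the inside share is higher, and no peak over 5 kb lay outside.

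Peaks of Ezh2, the enzyme of the mark, did not follow this division. They touched 8.89% of the shortest arrested peaks inside proliferating peaks over 1 kb and 8.40% of those outside, and 43.3% against 42.7% over 1 to 2 kb. Per base, arrested WT peaks lay in Ezh2 peaks 0.998 times as often as all bases of proliferating peaks over 1 kb, and outside 1.15 times as often as all bases there. The Ezh2 list, 809627 peaks with a median of 50 bp, covered 3.67% of the bases in proliferating peaks over 1 kb and 3.22% outside. At this resolution the Ezh2 list itself hardly distinguished the H3K27me3 domains from the rest of the autosomes.

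Outside peaks lay at all distances from the proliferating peaks. The median distance to the nearest one was 15865 bp, and the middle 50% ranged from 3011 to 63728.5 bp. Within 1 kb lay 13.0% of outside peaks, over 1 to 5 kb 18.8%, over 5 to 20 kb 22.2%, over 20 to 100 kb 28.1% and beyond 100 kb 17.8%. The share that touched an arrested SS peak fell over these steps from 18.1% to 1.63%, and the share touching a proliferating SS peak fell from 37.0% to 0.532%. The median fold moved little, from 5.85 to 5.63. Arrested SS peaks themselves covered 7.37% of outside bases within 5 kb of a proliferating WT peak and 1.20% of those farther away. Relative to these shares the overlap per base was 1.47 times near the peaks and 1.60 times farther away. The ratio has a lower ceiling near the peaks, so the 2 values do not rank the places.

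The outside peaks over 1 kb numbered 8032. Of these 18.9% (18.0% to 19.7%) touched an arrested SS peak and 24.5% a proliferating SS peak, against 88.4% and 98.3% of the 16713 arrested peaks over 1 kb inside. The longest outside peak, chr11:20836770-20840584, measured 3815 bp with a fold of 6.77, and the proliferating SS list covered 40.4% of it while the arrested SS list covered none. The next 4 were between 2932 and 3067 bp, and arrested SS peaks touched 1 of them and proliferating SS peaks another 1.

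Bins of 100 kb were compared by the share of their bases in each list. Arrested coverage exceeded proliferating coverage in 15922 of 24018 bins, or 66.3%, and 7355 of these had no proliferating peak, where any arrested peak makes the arrested share the higher. In these 7355 bins the median arrested coverage was 4.17%, with a middle 50% of 3.25% to 5.24%. In the 1634 bins with proliferating coverage over 40%, the medians were 54.5% proliferating and 20.1% arrested, and arrested coverage was higher in none of them. The bins were classed by proliferating coverage, so its wider range over the classes is set by the choice. The bin with the most outside arrested sequence, chr13:12900001-13000000, had 14.8% of its bases in 39 outside peaks, and the next bin on the same chromosome, chr13:13000001-13100000, had 12.9% in 35. In the arrested SS list these bins were covered over 3.03% and 0.951%.

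The covered length of the autosomes was lower in the arrested list, by a ratio of 0.786 to the proliferating list. When arrested peaks were joined, the ratio was 1.18 across gaps of up to 1 kb and 3.24 across up to 3 kb. The proliferating list was left unjoined, so joining could only raise the ratio, and a ratio with both lists joined was not taken. With the higher-scoring 50% of the proliferating list the ratio was 0.995. Without joining, it ranged over the autosomes from 0.609 on chromosome 11 to 1.14 on chromosome 3. These were also the chromosomes with the lowest and the highest share of arrested peaks outside, whereas outside coverage per base varied little, as given above.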

How the data were processed

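Peak lists, 1 for each immunoprecipitated library, were used as the authors deposited them; 5 of the 10 were read here and the other 5 were not used. The genome build was mm9 and the tools named are Bowtie2, MACS2, HOMER and bedtools, per the submitters' processing notes; versions, settings and control were not given in the sources used here. The deposited columns are a score, a fold enrichment (a ratio to background) and -log10 values of p and q, all by the authors' caller. They served to rank, describe or filter peaks within a list. Depth is unknown, and the 10 input samples were not analysed here.

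Groups came from sample titles. Chromosomes 1 to 19 were kept and coordinates are counted from 1. Overlap meant at least 1 bp, and peaks within a list did not overlap. Base-level overlap, pieces, gaps and distances were computed with Python 3.11.15, numpy 2.4.6 and pandas 2.3.3, intervals with scipy 1.17.1 and figures with matplotlib 3.10.9. The overlap step was checked on simulated lists. Named peaks were the first 5 by length, arrested coverage, number of pieces or length outside proliferating peaks, the 5 bins with most outside sequence, and 5 locus windows. Members, rules and windows were chosen with earlier results of these data known; the split into 10 score groups and the look at peaks with no piece were added with the values known. No test was made, since each group was 1 library. The gene and promoter tables at hand belong to another build, so no gene was assigned to a peak and no sequence is shown. Alternatives changed the arrested or proliferating peaks kept, the joining distance, the length threshold, the overlap rule and the chromosomes.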

Additional observations from a re-analysis of the deposited data

How the results depend on the processing

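In all settings but one, arrested peaks covered less than 50% of most proliferating peaks over 1 kb; joining across 3 kb was the exception. Results are given in the order coverage of bases, median coverage per peak, share of peaks under 50%, median share of the longest piece, inside to outside ratio, share of arrested peaks outside and covered length ratio, where the reported values were 26.3%, 15.3%, 92.4%, 10.6%, 4.50, 79.5% and 0.786, with a median of 1 piece. Arrested peaks of at least 500 bp gave 20.4%, 0%, 93.3%, 0%, 8.19, 54.7% and 0.414, with a median of 0 pieces. The highest-scoring arrested peaks, as many as the proliferating list holds, gave 5.22%, 0%, 99.0%, 0%, 4.53, 78.7% and 0.155, with 0 pieces. The higher-scoring 50% of the arrested list gave 17.7%, 6.16%, 95.5%, 5.02%, 5.73, 76.8% and 0.449. Joining across 1 kb gave 40.3%, 25.5%, 73.8%, 19.6%, 4.64, 81.6% and 1.18, and across 3 kb 78.3%, 97.4%, 29.1%, 97.4%, 2.91, 81.8% and 3.24. Both put the length ratio above 1, with the proliferating list left unjoined. The higher-scoring 50% of the proliferating list gave 27.9%, 18.9%, 92.0%, 11.4%, 4.61, 84.1% and 0.995, with 2 pieces. Including X and Y gave 25.5%, 13.9%, 92.8%, 10.1%, 4.53, 79.6% and 0.764. For the first 5 results, proliferating peaks over 500 bp gave 25.0%, 11.4%, 91.8%, 8.68% and 4.26, and those over 3 kb 29.7%, 24.2%, 93.5%, 12.7% and 5.07, with 3 pieces. Counting an arrested peak as inside at 50% of its length put 82.3% outside. A common lowest -log10 q-value left all 8 results as they were to 3 digits. The cause of these shifts was not tested beyond what each setting adds or removes. No paired analysis was possible because each group was 1 library. Unknown depth limits every coverage value.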
